A study of Bos grunniens with 18 samples.

Results

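The genes of prostaglandin, thromboxane and leukotriene synthesis and reception were followed in whole yak blood, as the entries of the deposited table whose gene name is *PTGS1*, *PTGS2*, *PTGES*, *PTGER2*, *PTGER4*, *PTGIR*, *HPGD*, *TBXAS1*, *ALOX5* or *ALOX5AP*. Of these 10 names, 9 were found among the 20607 genes of the table. No entry was named *PTGES*, a prostaglandin E synthase, so it was not analysed here. The filter on low counts was passed by 8 members, all except *PTGIR*.

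Prostaglandins, thromboxane and leukotrienes are lipid signals made from arachidonic acid. The cyclooxygenases PTGS1 and PTGS2 convert arachidonic acid to the endoperoxide from which prostaglandins and thromboxane are formed, whereas ALOX5, helped by the membrane protein ALOX5AP, starts leukotriene synthesis. In ruminants, prostaglandin F2α from the uterus ends the life of the corpus luteum, while in blood these lipids are made by platelets, monocytes and granulocytes.

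The study followed 6 yak cows of 4 to 8 years through anestrus (the Y-A group), estrus (the Y-E group) and pregnancy (the Y-P group), and each stage gave 6 libraries of poly(A) RNA from whole blood. Estrus was synchronized with a progesterone pessary, then cloprostenol, which is itself an analog of prostaglandin F2α, then gonadotropin-releasing hormone, before timed insemination. The sources used here do not say at which of these steps the blood of a stage was drawn. Since a cow passes the stages one after the other, the stage cannot be told apart from the time of sampling or from what was given before it.

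The libraries held 30247267 to 48401076 counts. Whole blood is a mixture, and a lower level of a gene can come from fewer cells of a type or from less RNA per cell, which cannot be told apart in these data. One library stood apart: in Y-E replicate 6 the 6 hemoglobin genes took 8.36% of the counts, against 0.0899% to 0.713% in the other estrus libraries, 3.10% to 16.7% in anestrus and 0.0272% to 0.376% in pregnancy. The results against Y-E are therefore also given without it (17 libraries) where they passed or came near. Levels are CPM (counts scaled to library totals corrected by the TMM method), given as lowest, median and highest over the 6 libraries of a stage, and n = 6 per stage throughout. Fold changes, standard errors (SE) and adjusted p-values come from the edgeR quasi-likelihood test with Benjamini-Hochberg adjustment over the 14508 tested genes. A member passed at an adjusted p under 0.05, and was called when its log2 fold change was also at least 1 in size.

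In the test without a term for the animal, each of the 8 tested members that passed in a comparison with Y-P was lower in pregnancy. None passed as higher, where 2.22% of all genes did against Y-A and 5.77% against Y-E, so 0 of 8 is near these shares. In Y-P vs. Y-A, 2 of 8 members passed, both cyclooxygenases and both lower, where 5.83% of all tested genes passed and 3.61% passed as lower. In Y-P vs. Y-E, 3 of 8 passed, *PTGS2*, *TBXAS1* and *ALOX5AP*, all lower, where 14.4% of all genes passed and 8.68% passed as lower. These comparisons share the Y-P libraries and are not independent. In Y-E vs. Y-A, 0 of 8 passed by edgeR, and 0 passed by DESeq2 or limma, where 0.0207% of all genes passed by edgeR. DESeq2 gave no adjusted p for *PTGS1* and *PTGER2* in this comparison, so its result does not cover them. At an unadjusted p under 0.05 there were 2 members in Y-E vs. Y-A, *TBXAS1* and *ALOX5AP*, beside 6.2% of all genes. The same looser threshold held 3 members in Y-P vs. Y-A (22.7% of all genes) and 4 in Y-P vs. Y-E (29.3%). The median log2 fold change of the members was 0.18 between estrus and anestrus, against −0.01 over all tested genes. For pregnancy it was −0.11 against anestrus and −0.56 against estrus, where the medians over all tested genes were 0.03 and 0.04. With library size only, the members' median in pregnancy became 0.045 against anestrus and −0.39 against estrus, and with limma on log2(FPKM + 1) it became 0.12 and −0.19, so its sign against anestrus depends on the scaling. The balance over all genes turned as well: against anestrus 322 were higher and 524 lower by TMM, but 1073 and 258 with library size only and 1789 and 216 with limma on log2(FPKM + 1). Against estrus 837 were higher and 1259 lower by TMM, but 1789 and 757 with library size only and 2354 and 657 with limma. In these settings, too, no member passed as higher. Against anestrus, 4 of 8 members had a log2 fold change above 0 with library size only and 5 of 8 with limma. With the replicate number as a block, *HPGD* passed as higher in both comparisons with Y-P. With both thresholds, *PTGS1* and *PTGS2* were called in pregnancy against anestrus (1.43% of all genes) and *PTGS2* in pregnancy against estrus (2.67%), while 0 members were called in Y-E vs. Y-A (0.0138%). In none of the 24 combinations of member and comparison were the ranges of the stages fully separate. Over all genes the ranges did not overlap for 0.303% in Y-E vs. Y-A, 3.55% for pregnancy against anestrus and 6.03% for pregnancy against estrus.

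**Figure D1:**
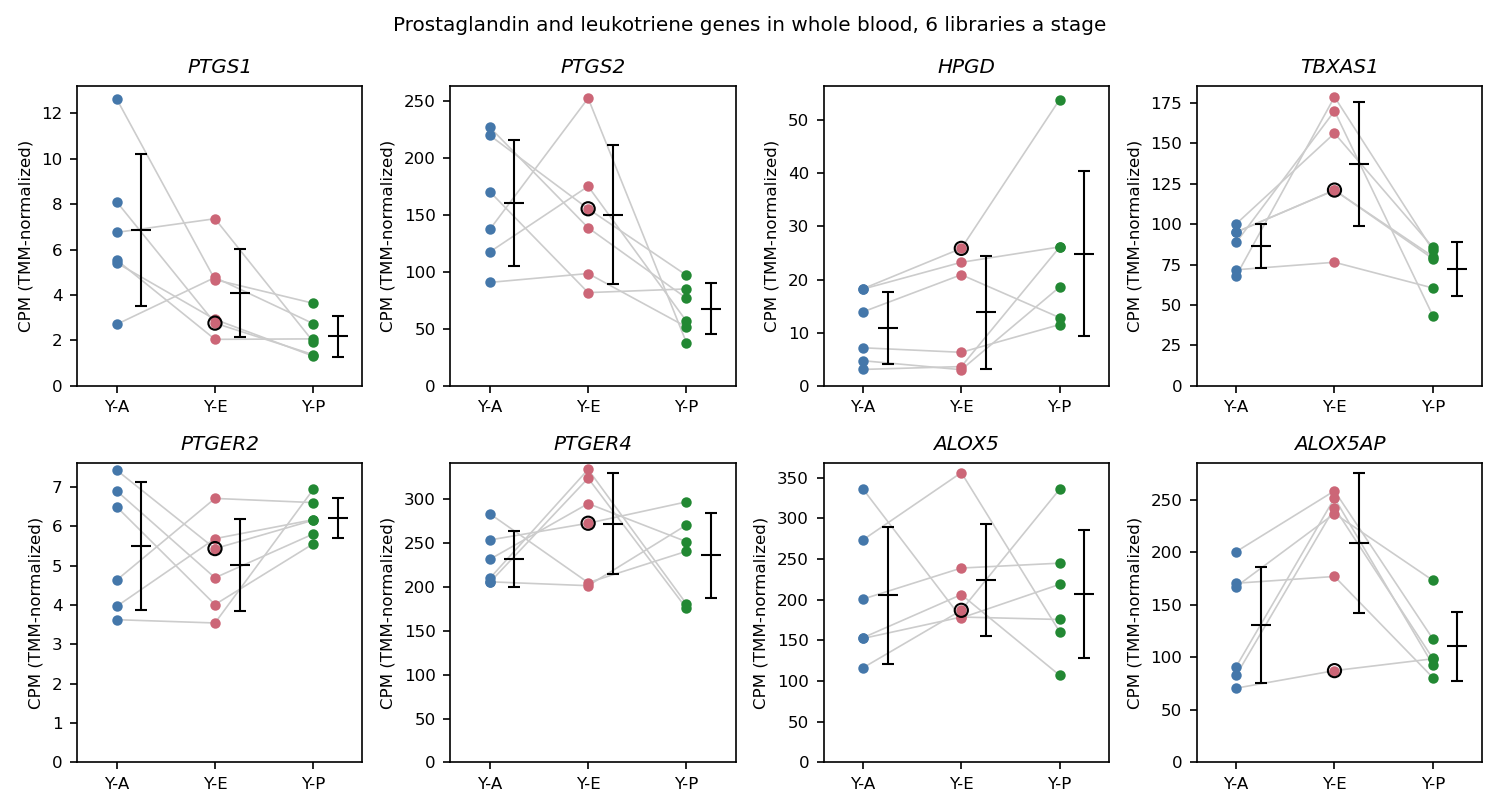
Level of each tested member in CPM for the 18 libraries, by stage; grey lines join libraries with the same replicate number, bars show mean ± SD (n = 6), and the ringed point is Y-E replicate 6. *PTGS2* lies between 37.8 and 97.0 CPM in Y-P, and 5 of those libraries are below every Y-A library.

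*PTGS2* encodes the inducible cyclooxygenase (ENSBGRG00000018786, chromosome 14, 67807986 to 67815733, minus strand; positions are those of the deposited table, whose build is named only as the Ensembl *Bos grunniens* genome). It had 90.7, 154 and 227 CPM in anestrus, 81.8, 147 and 252 CPM in estrus, and 37.8, 66.8 and 97.0 CPM in pregnancy. The highest Y-P library, replicate 6, was above the lowest Y-A library, replicate 1, while the other 5 Y-P libraries lay below all of Y-A. Against Y-E, 4 of 6 Y-P libraries lay below all Y-E libraries. The log2 fold change was −1.25 in Y-P vs. Y-A (SE 0.28, adjusted p = 0.0176), and the level was lower in 6 of 6 pairs of libraries with the same number. In Y-P vs. Y-E it was −1.15 (SE 0.28, adjusted p = 0.0110), lower in 5 of 6 pairs, and without Y-E replicate 6 it was −1.14 (adjusted p = 0.0174). Between Y-E and Y-A the log2 fold change was −0.09 (SE 0.28, adjusted p = 0.999).

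*PTGS1* encodes the constitutive cyclooxygenase, which platelets use to make thromboxane (ENSBGRG00000013821, chromosome 9, 1254383 to 1294406, plus strand). It was far less abundant, with 50 to 451 counts in a library. Its level was 2.71, 6.15 and 12.6 CPM in anestrus, 2.05, 3.80 and 7.36 CPM in estrus, and 1.31, 2.01 and 3.64 CPM in pregnancy. The Y-P libraries lay toward the lower end, where they mixed with others: 4 of 6 lay below all of Y-A and 3 of 6 below all of Y-E. The log2 fold change was −1.66 in Y-P vs. Y-A (SE 0.37, adjusted p = 0.0155), lower in 5 of 6 pairs with the same number. In Y-P vs. Y-E it was −0.91 (SE 0.36, adjusted p = 0.0983; adjusted p = 0.0845 without Y-E replicate 6), and in Y-E vs. Y-A −0.75 (SE 0.36, adjusted p = 0.807). Neither passed, so the order Y-A, Y-E, Y-P of the means (6.86, 4.09 and 2.18 CPM) was separated by the test only at its ends.

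*TBXAS1* encodes thromboxane A synthase, which turns the cyclooxygenase product into thromboxane (ENSBGRG00000001023, chromosome 4, 17962683 to 18163306, minus strand). A U3 gene lies within its span on the opposite strand, and whether counting used strand is not given in the sources used here. Its level was 68.0, 91.8 and 100.1 CPM in anestrus, 76.4, 139 and 179 CPM in estrus, and 43.4, 79.3 and 85.7 CPM in pregnancy. The Y-E libraries were the highest: all except replicate 4 lay above every Y-A and every Y-P library. The log2 fold change in Y-P vs. Y-E was −0.93 (SE 0.19, adjusted p = 0.00395), lower in 6 of 6 pairs, and −0.96 without Y-E replicate 6 (adjusted p = 0.00515). In Y-E vs. Y-A it was 0.67 (SE 0.19), higher in 6 of 6 pairs, but the adjusted p was 0.381 by edgeR (0.195 without Y-E replicate 6) and 0.0705 by DESeq2. In Y-P vs. Y-A it was −0.26 (SE 0.19, adjusted p = 0.444).

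*HPGD* encodes the dehydrogenase that inactivates prostaglandins (ENSBGRG00000011030, chromosome 7, 116783289 to 116829937, plus strand), and relative to its mean it had the largest spread within each stage among the tested members. Its level was 3.10, 10.6 and 18.3 CPM in anestrus, 3.05, 13.6 and 25.9 CPM in estrus, and 11.5, 22.4 and 53.9 CPM in pregnancy. In Y-A and in Y-E alike, the libraries numbered 1, 4 and 5 were the lowest and those numbered 2, 3 and 6 the highest. In Y-P, replicates 4 and 5 had 18.6 and 26.1 CPM, against 4.74 and 3.10 CPM for the same numbers in Y-A. The level was higher in 5 of 6 pairs in both comparisons with Y-P. In the test without a term for the animal, the log2 fold change was 1.19 in Y-P vs. Y-A (SE 0.56, adjusted p = 0.212) and 0.84 in Y-P vs. Y-E (SE 0.55, adjusted p = 0.338), and neither passed. Without Y-P replicate 6, the library of 53.9 CPM, these values were 0.81 (adjusted p = 0.411) and 0.46 (adjusted p = 0.632).

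With the replicate number as a block, taken as the animal although the sources used here do not state this, *HPGD* passed in both: the log2 fold change was 1.41 in Y-P vs. Y-A (SE 0.38, adjusted p = 0.0356) and 1.21 in Y-P vs. Y-E (SE 0.39, adjusted p = 0.0416). With 1 of 2 single libraries left out the fold changes were as large, but the adjusted p stayed under 0.05 in only 1 of 4 values. With the block but without Y-E replicate 6, the values were 1.42 (adjusted p = 0.0471) and 1.27 (adjusted p = 0.0656). With the block but without Y-P replicate 6, they were 1.42 (adjusted p = 0.0645) and 1.22 (adjusted p = 0.0734). Over all genes, the Y-P libraries 4 and 5 did not deviate with the Y-A libraries of the same number (r = −0.049 and −0.012). The block added genes across the table. Of the 14508 tested genes, 481 passed as higher with it in Y-P vs. Y-A and 1047 in Y-P vs. Y-E, against 322 and 837 without it.

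Of the receptors, *PTGER4* and *PTGER2* both encode receptors of prostaglandin E2 that raise cyclic AMP, and *PTGIR* encodes the prostacyclin receptor. *PTGER4* (ENSBGRG00000024291, chromosome 23, 49745133 to 49759988, plus strand) had 205, 221 and 283 CPM in anestrus, 201, 284 and 334 CPM in estrus, and 176, 246 and 297 CPM in pregnancy. *PTGER2* (ENSBGRG00000004014, chromosome 11, 12705422 to 12717366, plus strand) had 3.63, 5.56 and 7.43 CPM in anestrus, 3.54, 5.06 and 6.71 CPM in estrus, and 5.56, 6.16 and 6.94 CPM in pregnancy. The stages overlapped for both receptors, and the Y-P libraries of *PTGER2* lay closest together (SD 0.506 CPM, against 1.63 in anestrus and 1.16 in estrus). Neither receptor passed in any comparison. The log2 fold changes of *PTGER4* ran from −0.20 (SE 0.15, adjusted p = 0.413, Y-P vs. Y-E) to 0.23 (SE 0.15, adjusted p = 0.950, Y-E vs. Y-A). Those of *PTGER2* ran from −0.14 (SE 0.20, adjusted p = 0.999, Y-E vs. Y-A) to 0.31 (SE 0.20, adjusted p = 0.334, Y-P vs. Y-E). *PTGIR* (ENSBGRG00000017949, chromosome 20, 61790557 to 61793913, plus strand) had 0 to 9 counts in a library from anestrus, 0 to 10 from estrus and 0 to 8 from pregnancy, which is near the floor of 3 counts that an observed 0 allows, so no difference was detectable at this depth.

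*ALOX5AP* encodes the activating protein that presents arachidonic acid to ALOX5 (ENSBGRG00000007328, chromosome 15, 52107740 to 52138759, plus strand). Its level was 70.6, 129 and 200.4 CPM in anestrus, 87.3, 239 and 258 CPM in estrus, and 80.7, 98.7 and 173 CPM in pregnancy. The lowest Y-E library was replicate 6, and the other 5 had 177 to 258 CPM, above every Y-P library. The log2 fold change in Y-P vs. Y-E was −0.92 (SE 0.28, adjusted p = 0.0354), lower in 5 of 6 pairs, and −1.08 without Y-E replicate 6 (SE 0.25, adjusted p = 0.00990). The adjusted p was no longer under 0.05 when library size alone set the scale (−0.78, adjusted p = 0.0512) and with limma on FPKM (adjusted p up to 0.129). The same was so without any one of Y-E replicates 1, 2, 3 and 5 and Y-P replicates 2, 3, 4 and 6, with an adjusted p of at most 0.0765 in those fits. In Y-E vs. Y-A the log2 fold change was 0.68 (SE 0.28, adjusted p = 0.676), higher in 6 of 6 pairs, and 0.84 without Y-E replicate 6 (adjusted p = 0.213). In Y-P vs. Y-A it was −0.24 (SE 0.28, adjusted p = 0.662).

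*ALOX5*, the lipoxygenase itself (ENSBGRG00000018227, chromosome 27, 46305853 to 46362302, minus strand), passed in no comparison. It had 116, 177 and 336 CPM in anestrus, 178, 197 and 356 CPM in estrus, and 107, 197 and 336 CPM in pregnancy. The spread within each stage was wide, while the stage means were 205, 224 and 207 CPM. The log2 fold change was 0.13 between estrus and anestrus, 0.012 for pregnancy against anestrus and −0.11 against estrus, each with an SE of 0.27 and an adjusted p of at least 0.829.

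**Figure D2:**
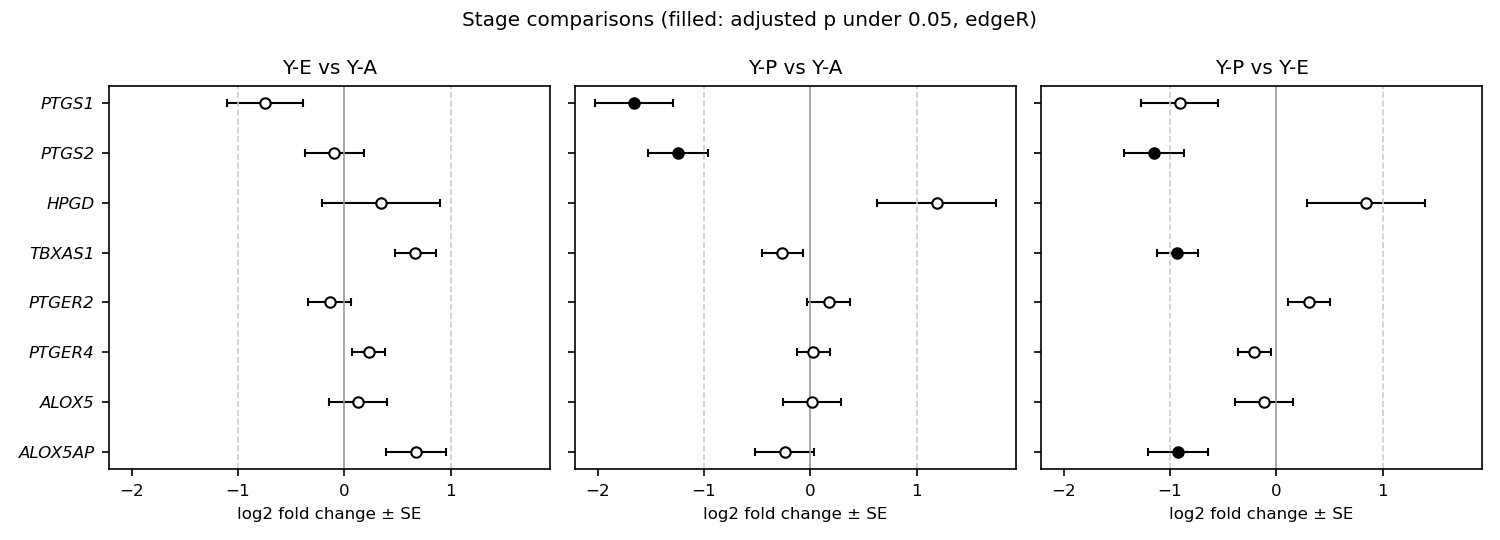
Log2 fold change ± SE of the 8 tested members in the 3 comparisons; filled points have an adjusted p under 0.05 and dashed lines mark a log2 fold change of −1 and 1. The filled points are *PTGS1* and *PTGS2* in Y-P vs. Y-A and *PTGS2*, *TBXAS1* and *ALOX5AP* in Y-P vs. Y-E, all below 0.

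Levels of different genes were compared by FPKM, which is scaled by gene length. In mean FPKM, *ALOX5AP* was the highest member in every stage (82.6 ± 31.8 in anestrus, 134 ± 39.9 in estrus and 81.7 ± 25.3 in pregnancy; SD, n = 6). *PTGER4* (62.4, 73.8 and 74.2 in the same order) and *ALOX5* (62.5, 67.8 and 72.9) followed, and the SD of *ALOX5* in each stage was larger than the gap between them. *PTGS2* (41.3, 38.7 and 20.3) and *TBXAS1* (31.1, 49.5 and 30.1) came next, with *PTGS2* ahead in Y-A only. *HPGD* (5.44, 6.79 and 14.2), *PTGER2* (4.21, 3.87 and 5.50) and *PTGS1* (2.47, 1.48 and 0.917) were lower, and *PTGIR* was the lowest in every stage, at no more than 0.0772.

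Ratios within a library do not depend on the scaling between libraries, and 3 pairs of members were compared in 9 tests by a two-sided exact permutation test over libraries. The inducible cyclooxygenase exceeded the constitutive one in every library: the FPKM ratio of *PTGS2* to *PTGS1* had a median of 20.4 in anestrus, 30.9 in estrus and 24.8 in pregnancy. It ranged from 5.02 to 51.3 over all libraries, and the difference in its mean log2 between stages did not exceed 0.58 (adjusted p of at least 0.475). Thus the lower levels of both genes in Y-P vs. Y-A came with a difference of 0.27 in the log2 ratio (adjusted p = 0.626).

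The FPKM ratio of *PTGER2* to *PTGER4* was 0.0486 to 0.0956 in anestrus, 0.0411 to 0.0571 in estrus and 0.0587 to 0.104 in pregnancy. Every Y-P library lay above every Y-E library, although neither receptor passed alone. The share of other gene pairs whose ratios separate this way was not tested, and the CPM ranges of 6.03% of single genes did not overlap in this comparison. The difference can therefore not be called particular to these receptors. The mean log2 ratio differed by 0.53 in Y-P vs. Y-E (exact permutation p = 0.00216, the smallest that 6 against 6 libraries can give, adjusted p = 0.0195 over 9 tests; 0.55 without Y-E replicate 6, adjusted p = 0.0390). The difference missed the threshold with an FPKM pseudocount of 1 (0.44, adjusted p = 0.0584) and without Y-E replicate 3 (0.46, adjusted p = 0.0584). Paired by replicate number, the ratio was higher in Y-P in 6 of 6 pairs, and the exact sign-flip p was 0.0312, the smallest that 6 pairs allow (adjusted p = 0.0938), so this test could hardly pass over 9 tests. The ratio of *ALOX5AP* to *ALOX5* had a median of 1.22 in anestrus, 2.12 in estrus and 1.33 in pregnancy. Its log2 difference was −0.72 in Y-P vs. Y-E (exact permutation p = 0.0671, adjusted p = 0.286).

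**Figure D3:**
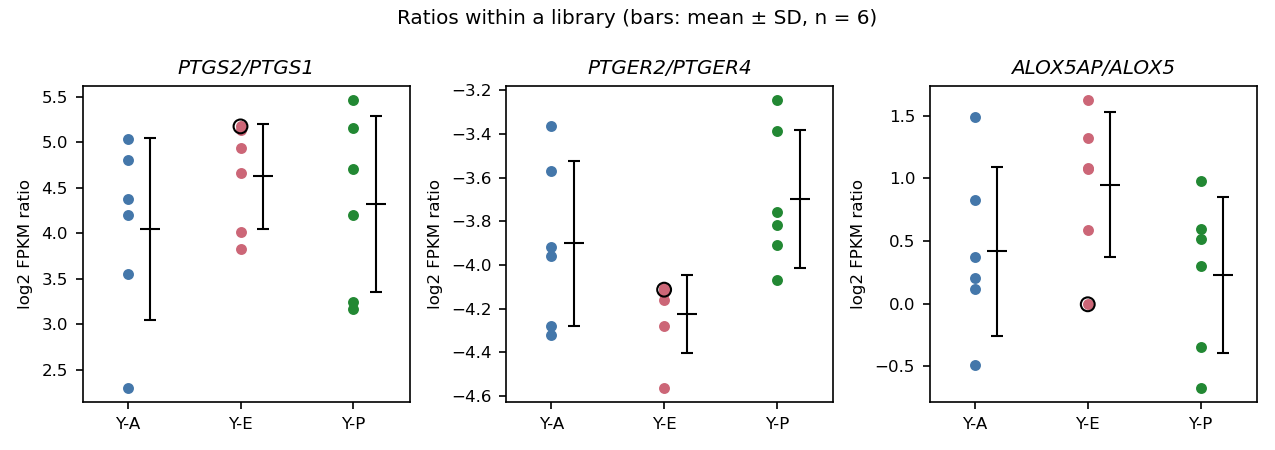
Log2 ratio of FPKM (pseudocount 0.1) for 3 pairs of members in the 18 libraries by stage; bars show mean ± SD (n = 6) and the ringed point is Y-E replicate 6. For *PTGER2* over *PTGER4*, all Y-P points (−4.07 to −3.25) lie above all Y-E points (−4.56 to −4.11).

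The wider pathway was read from a list of 48 other eicosanoid genes: phospholipases that release arachidonic acid, further synthases and receptors, transporters, and enzymes of the lipoxygenase branch. The table held 33 of them and 28 were tested. In estrus against anestrus 0 of 28 passed by edgeR, with 1 at an unadjusted p under 0.05, beside 0.0207% and 6.2% of all tested genes, and limma on FPKM also gave 0. In pregnancy against anestrus 0 of 28 passed by edgeR, with 3 at an unadjusted p under 0.05, beside 5.83% and 22.7% of all genes. There limma on log2(FPKM + 1) gave 1 higher, beside 1789 of all 15328 genes in that fit. In Y-P vs. Y-E, 2 of 28 passed, both lower, beside 14.4% of all genes. Limma on log2(FPKM + 1) gave 2 higher and 2 lower, where 2354 of 15328 genes were higher and 657 lower. Library size only and the replicate block each gave 1 higher and 2 lower. Of all 14508 genes, 1789 were higher and 757 lower with library size only, and 1047 and 1561 with the block. By DESeq2 the phospholipase *PLA2G6* passed as higher, with a log2 fold change of 0.48 (adjusted p = 0.0368, against 0.0595 by edgeR), and it was named after its values were seen. With the block the higher gene was *DPEP2*, a dipeptidase that converts leukotriene D4 to E4, with a log2 fold change of 0.55 (adjusted p = 0.0460); it was named after its values were seen. *PLA2G4A*, the cytosolic phospholipase that frees arachidonic acid from membranes, had 26.1 to 48.2 CPM in Y-E and 10.4 to 25.3 CPM in Y-P. Its ranges did not overlap, as for 6.03% of all tested genes, and the log2 fold change was −0.83 (SE 0.21, adjusted p = 0.0127; −0.72 without Y-E replicate 6, adjusted p = 0.0288). *COTL1*, an actin-binding protein that also binds ALOX5, had 1743 to 3208 CPM in Y-E and 1245 to 1885 CPM in Y-P. Its log2 fold change was −0.70 (SE 0.16, adjusted p = 0.00580; −0.78 without Y-E replicate 6, adjusted p = 0.00278). The median log2 fold change of the 28 genes was 0.073 between estrus and anestrus, and for pregnancy 0.080 against anestrus and −0.038 against estrus. The last 2 depend on the scaling: with library size only they were 0.25 and 0.11, and with limma on log2(FPKM + 1) 0.20 and 0.12.

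**Figure D4:**
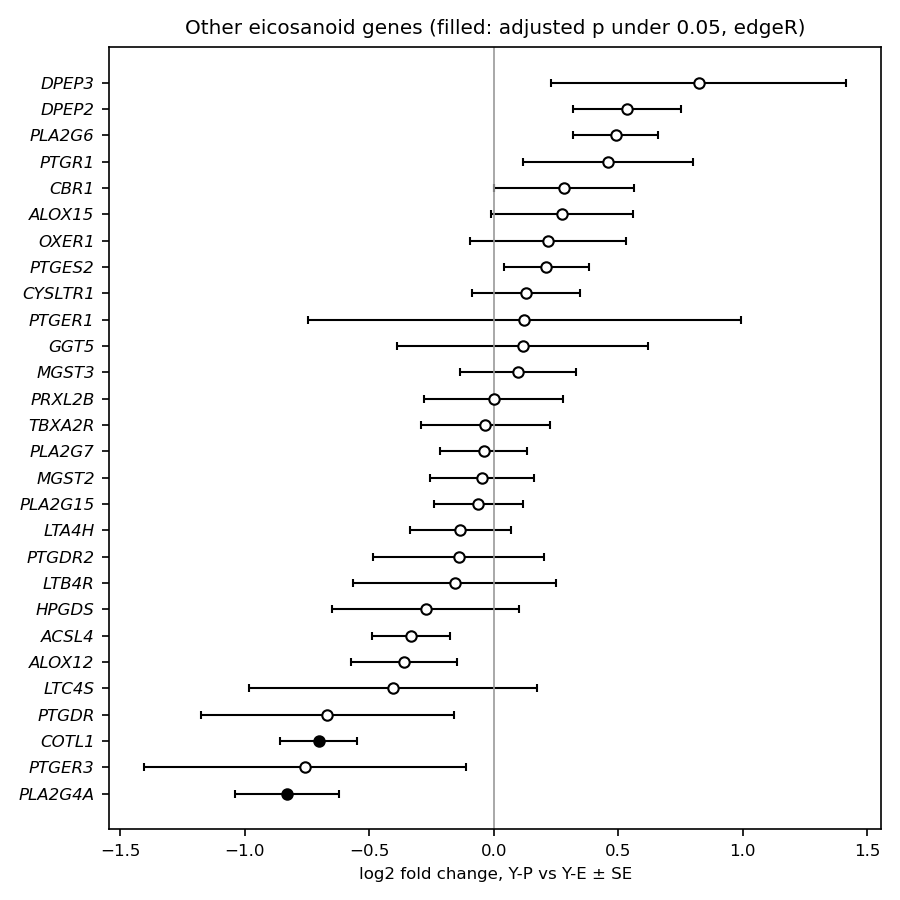
Log2 fold change ± SE in Y-P vs. Y-E of the 28 tested genes of the wider eicosanoid list, ordered by value; filled points have an adjusted p under 0.05. Only *COTL1* (−0.70) and *PLA2G4A* (−0.83) are filled.

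Levels of blood cell markers moved with several members, and their part in the member results was not tested. The marker counts below stand beside shares of all tested genes. In Y-P vs. Y-A these were 3.61% lower and 2.22% higher, and in Y-P vs. Y-E 8.68% lower and 5.77% higher. Of 10 neutrophil markers, 5 were in the table, and 4 of them (*CSF3R*, *MMP9*, *S100A9* and *S100A12*) were lower in Y-P vs. Y-E. Their summed level was 3624 to 9221 CPM in Y-A, 4688 to 12384 CPM in Y-E and 2638 to 5943 CPM in Y-P, and the lowest Y-E value was that of replicate 6, which was also lowest for *ALOX5AP*. Of 8 platelet markers, 4 were in the table, and *TREML1* and *TUBB1* were lower in both comparisons with Y-P. The summed platelet level was 263 to 355 CPM in Y-A, 230 to 374 CPM in Y-E and 142 to 198 CPM in Y-P, so that every Y-P library lay below every other library. *GP1BB*, a defining platelet gene, had at most 3 counts in any library, and *PF4* and *PPBP* had no entry. Of 6 monocyte markers in the table, *CD68* was lower in Y-P vs. Y-E, and the summed level was 593 to 981, 510 to 1110 and 384 to 811 CPM by stage in the same order. None of the 6 eosinophil and basophil markers in the table passed in any comparison, with sums of 161 to 406, 207 to 396 and 159 to 328 CPM. Reticulocyte markers were lower in Y-P, 5 of 5 against Y-A and 3 of 5 against Y-E. Of 5 T cell markers, 2 were higher in Y-P vs. Y-A and 3 in Y-P vs. Y-E. None of 8 B cell markers passed in any comparison. Of 4 NK cell markers in the table, only *KLRK1* passed, higher in Y-P vs. Y-E. Of 10 immediate-early genes, whose RNA rises within minutes of a stimulus, 3 were higher in Y-P vs. Y-A and 4 in Y-P vs. Y-E. Of these, *FOS* had a mean of 342 CPM in pregnancy against 44.7 in anestrus and 43.9 in estrus. *JUNB*, *ATF3* and *IER2* had log2 fold changes below 0 in Y-P vs. Y-E (−0.44, −0.37 and −0.09) and did not pass. The summed level was 570 to 1191 CPM in Y-A, 889 to 1197 CPM in Y-E and 732 to 4330 CPM in Y-P. The highest Y-P libraries were replicates 2 and 6 (4330 and 2716 CPM), while replicates 1, 3 and 4 (938, 732 and 959 CPM) lay within the range of Y-A.

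Over the 18 libraries some members tracked the same marker lists and others different ones. These correlations of log2 CPM are descriptions, since the libraries come from 6 cows and share their depth and scaling. *ALOX5* followed the summed eosinophil and basophil markers (Pearson r = 0.93, Spearman rho = 0.93), and r was 0.94 for deviations from the stage means and 0.90 without the 2 libraries farthest from the median. The largest part of this sum was *CCR3* (means of 131, 150 and 135 CPM in Y-A, Y-E and Y-P), while *HDC* and *CPA3* had means of at most 0.509 and 0.728 CPM. Of the same list, *FCER1A* and *MS4A2* had log2 fold changes of 0.68 and 0.67 in Y-P vs. Y-A, neither passing, against 0.012 for *ALOX5*. *ALOX5AP* followed the neutrophil markers (r = 0.76, rho = 0.70, 0.65 within stages). *TBXAS1* followed the monocyte markers (r = 0.72, rho = 0.78, 0.64 within stages) and the neutrophil markers (r = 0.73, 0.39 within stages). *PTGS1* and *PTGS2* correlated with the platelet markers over all libraries (r = 0.66 and 0.65) but much less within stages (r = 0.19 and −0.05). Both also correlated with the monocyte markers, *PTGS2* at r = 0.61 (rho = 0.71, 0.35 within stages) and *PTGS1* at r = 0.50 (0.29 within stages). For *PTGS1* and *PTGS2*, r was of similar size with the reticulocyte markers (0.58 and 0.56, within stages 0.04 and 0.18). It was so too, inversely, with the T cell markers (−0.61 and −0.59, within stages −0.28 and −0.09), so no single cell type stood out. With the B cell markers *PTGS2* correlated inversely (r = −0.55, −0.54 within stages). *PTGS2* did not rise with the immediate-early genes (r = −0.46, rho = −0.20). *PTGER4* fell with the B cell markers (r = −0.60, −0.57 within stages) and the T cell markers (−0.43, −0.49 within stages). It rose with the monocyte markers (0.51, 0.49 within stages), the immediate-early genes (0.40, 0.51) and the platelet markers (0.36, 0.54). For *HPGD* the largest r were 0.55 (immediate-early genes) and −0.52 (neutrophils), and for *PTGER2* the largest was −0.385 (neutrophils).

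**Figure D5:**
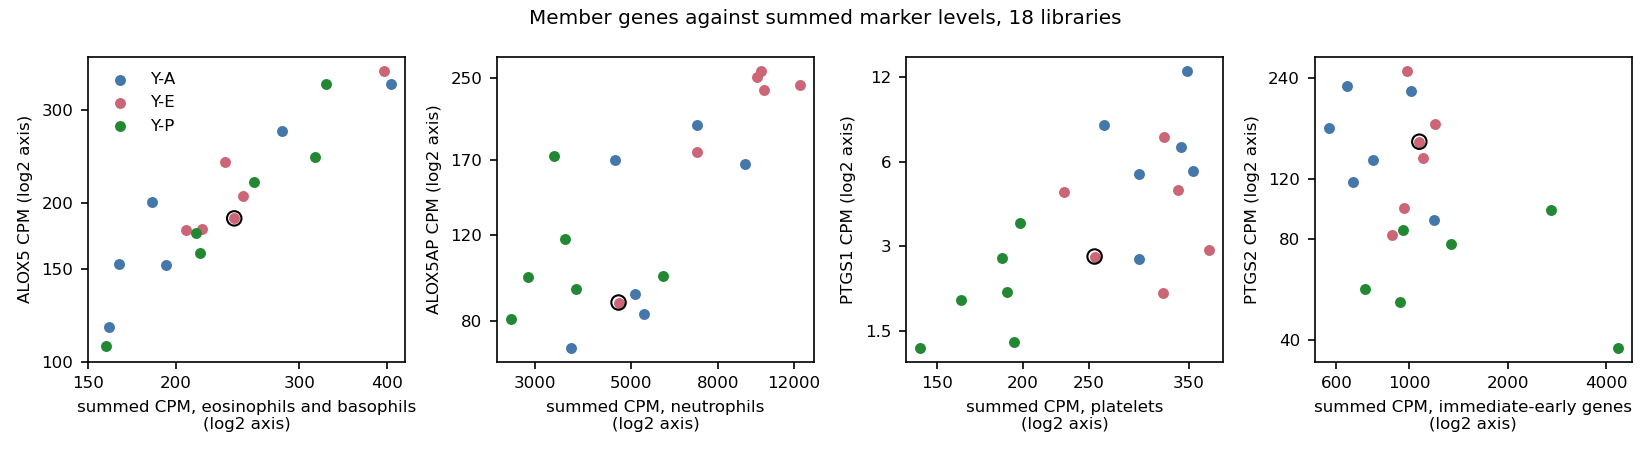
Level of 4 members against the summed level of a marker list, both in CPM on log2 axes, for the 18 libraries coloured by stage; the ringed point is Y-E replicate 6. *ALOX5* rises with the eosinophil and basophil markers in all 3 stages (r = 0.93), whereas the Y-P libraries hold the low end of the platelet axis.

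The genes whose pattern over the 18 libraries was most like that of a member were the 3 tested genes with the highest Pearson r of log2 CPM. For *ALOX5* they were *CCR3*, the eotaxin receptor of eosinophils and a gene of the eosinophil and basophil list (r = 0.95), *RHEX* (0.87) and *DAPK2* (0.87). Because *CCR3* was the largest part of that list's sum, its likeness and that of the sum are not separate observations. For *ALOX5AP* they were *ANXA11* (0.94), *HCLS1* (0.89) and *CD24* (0.89). For *TBXAS1* they included *IFNGR2*, a chain of the interferon gamma receptor (0.92), and *WLS* (0.92). *PTGS2* was most like *CD101* (0.92), *ENTPD1*, which breaks down extracellular ATP (0.91), and *PPM1D* (0.91). *PTGS1* was most like *TCF7L2* (0.85), *PLAGL2* (0.82) and *PTPN9* (0.80). *PTGER4* was most like *PRDM1* (0.88), *MARK4* (0.83) and *PITPNM2* (0.82). *HPGD* was most like *RNF115* (0.88), *PEPD* (0.83) and *ECSIT* (0.76), while *PTGER2* had the weakest likeness, to *PHLDA1* (0.70), *RPUSD4* (0.70) and *SLC38A6* (0.68). Among the members themselves, r was 0.64 between *PTGS2* and *TBXAS1*, 0.63 between *TBXAS1* and *ALOX5AP*, and 0.46 between *PTGS1* and *PTGS2*.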

How the data were processed

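RNA of whole blood was sequenced as 18 libraries, 6 per stage, and the sample title placed each library in its stage. The authors trimmed the reads with cutadapt 1.9, aligned them with HISAT2 2.2.1 to the *Bos grunniens* genome and estimated FPKM with StringTie 2.1.6 and ballgown. The authors deposited these FPKM values and, beside them, whole-number counts that were not normalized; the sources used here do not name the counting step. The submitters' processing notes also name DESeq2 and edgeR. All per-sample columns of the table were used.

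Tests of the counts used edgeR 4.0.16 under R 4.3.3 (TMM, filterByExpr, 1 quasi-likelihood model of stage for all 18 libraries, two-sided tests, Benjamini-Hochberg within a comparison), after the scripts had been tested on simulated data. Ratios of FPKM used a pseudocount of 0.1 and exact permutation tests over 924 arrangements. DESeq2 1.42.0 and limma 3.58.1 on log2 FPKM served as alternatives, with others for scaling, filter, samples and pairing. Figures were drawn with matplotlib 3.10.9.

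Every member in the table is named, as are the genes of the wider list that passed and the 3 genes most like each member. For *TBXAS1*, 1 of these 3 is not reported here. The members and lists were chosen with earlier results of these data known.

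The replicate numbers were taken as the cows, because the study followed the same 6 cows, but the sources used here do not say that a number is a cow. In the check, deviations from the stage means of libraries with the same number correlated at 0.110 to 0.515 between Y-E and Y-A (6 of 6 pairs over 0.1), at −0.0492 to 0.369 between Y-P and Y-A (4 of 6) and at −0.0544 to 0.400 between Y-P and Y-E (4 of 6). The main test has no block, so its p-values treat the libraries of the stages as separate samples.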

Additional observations from a re-analysis of the deposited data

Results flagged for a closer look

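In 33 groups of 6 libraries (member levels and ratios by stage), 2 held a library far from the rest by Dixon's test, and chance alone gives about 1 in 20. *HPGD* had 53.9 CPM in Y-P replicate 6, against 11.5 to 26.1 CPM in the other 5 Y-P libraries (Dixon's Q = 0.655). *ALOX5* had 356 CPM in Y-E replicate 2, against 178 to 239 CPM in the other 5 Y-E libraries (Q = 0.657).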

How the results depend on the processing

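*PTGS1* in Y-P vs. Y-A, *PTGS2* in both comparisons with Y-P, and *TBXAS1* in Y-P vs. Y-E passed the adjusted p in all 30 alternatives, whereas *ALOX5AP* in Y-P vs. Y-E passed in 18 of 30 (adjusted p 0.00608 to 0.129). With both thresholds, the 2 members called in Y-P vs. Y-A became 1 (*PTGS2*) with limma on log2(FPKM + 1), filtered or not. The 1 member called in Y-P vs. Y-E became 0 with library size only and in the 3 limma settings, and 0 to 2 when single libraries were left out (0 without Y-E replicate 2, and 2 without Y-E replicate 4, Y-E replicate 6 or Y-P replicate 5). The members passing there ranged from 2 to 3 when single libraries were left out. Library size only moved the median log2 fold change of all genes to 0.19 in Y-P vs. Y-A and 0.18 in Y-P vs. Y-E. The causes were not tested.

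With the replicate block, 3 members were called in Y-P vs. Y-A (*HPGD*, *PTGS1* and *PTGS2*) and 2 in Y-P vs. Y-E (*HPGD* and *PTGS2*). At the adjusted p alone, 3 instead of 2 members passed in Y-P vs. Y-A and 4 instead of 3 in Y-P vs. Y-E, each time by adding *HPGD*. More of the 14508 tested genes passed with the block as well. In Y-P vs. Y-A 481 were higher and 801 lower, against 322 and 524 without it, and 256 instead of 208 were called. In Y-P vs. Y-E 1047 were higher and 1561 lower, against 837 and 1259, and 421 instead of 387 were called. The block changed no other member's side of the threshold. In 2 alternatives chosen after seeing the data, the block without Y-E replicate 6 and the block without Y-P replicate 6, 2 members were called in Y-P vs. Y-E (*ALOX5AP* and *PTGS2*). Paired by replicate number, the log2 ratio of *PTGER2* to *PTGER4* differed by 0.53 in Y-P vs. Y-E (exact sign-flip adjusted p = 0.0938, from p = 0.0312, the smallest that 6 pairs allow, so this says nothing of a weaker difference), and with a pseudocount of 1 by 0.44, while it ranged from 0.44 to 0.60 when single libraries were left out.

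Values that changed sign belonged to differences that did not pass. In Y-E vs. Y-A, *PTGS2* was 0.042 with the block without Y-E replicate 6. In Y-P vs. Y-A, *ALOX5* was −0.021 with only these stages and −0.22 with the block without Y-P replicate 6, *PTGER4* was −0.033 in the latter, and *ALOX5AP* was 0.030 to 0.031 with limma. In Y-P vs. Y-E, *ALOX5* was 0.043 with library size only and 0.033 to 0.034 with limma. The log2 ratio of *PTGS2* to *PTGS1* in Y-P vs. Y-A was −0.18 with a pseudocount of 1. With single libraries left out, the ranges were −0.30 to 0.032 for *PTGS2* and −0.055 to 0.32 for *ALOX5* in Y-E vs. Y-A, −0.049 to 0.10 for *PTGER4* and −0.18 to 0.21 for *ALOX5* in Y-P vs. Y-A, and −0.30 to 0.067 for *ALOX5* in Y-P vs. Y-E. For the ratios in Y-P vs. Y-A they were −0.075 to 0.50 (*PTGS2* to *PTGS1*) and −0.37 to 0.023 (*ALOX5AP* to *ALOX5*). Depth limits *PTGIR*, at 10 counts or fewer.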
